A study of Rattus norvegicus with 12 samples.

Results

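The genes described here are Ppp3ca and Ppp3cb, which encode catalytic subunits of the phosphatase calcineurin, its regulator Rcan1, the NFAT transcription factors, and the MEF2 transcription factors Mef2a, Mef2c and Mef2d. They were chosen by gene name, 10 names in all, and 9 of the names were found among the 32545 genes of the deposited table. Nfatc1 was not analysed here. All 9 genes found passed the filter on low values, which kept 13910 genes. Myocardium of the left ventricular (LV) or right ventricular (RV) free wall came from SD (Sprague-Dawley) rats that were operated on at postnatal day 1 and tested at postnatal day 7 (P7). In the volume overload (VO) groups an arteriovenous fistula was made between the abdominal aorta and the inferior vena cava, and the control rats had a sham operation. Each ventricle gave 3 libraries per operation, which makes 4 groups (sham LV, VO LV, sham RV and VO RV). Nothing in the labels says which libraries came from separate rats or how many hearts each library holds, so p values measure the spread between these libraries.

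Calcineurin is switched on by calcium and calmodulin, and it removes phosphates from NFAT proteins, which then enter the nucleus. Kinases such as GSK3, casein kinase 1 and DYRK put the phosphates back. MEF2 factors bind A/T-rich elements of muscle genes and are held inactive by class IIa histone deacetylases, which calcium-dependent kinases export from the nucleus. In heart muscle the pathway is known for its part in growth under load, and Rcan1, which binds and restrains calcineurin, is itself a target of NFAT. Much of this regulation acts on the proteins, which were not measured here: the values below are mRNA levels, and a value per gene does not separate the isoforms of Rcan1 or of the MEF2 genes.

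Mef2a, Mef2d and Rcan1 had the widest ranges over the 12 libraries as a ratio of highest to lowest, so the sequence before the start of each is shown. RefSeq (assembly GRCr8) gave such a sequence for 6 of the 10 names. The 250 bases before the annotated start are printed 5′ to 3′ along the strand of the gene. Capitals mark GGAAA on either strand, the core that NFAT proteins bind, or the MEF2 consensus, an A/T-rich element that begins with C or T, searched on both strands.

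The Mef2a sequence is chr1:130392163-130392412 on the minus strand, with 1 MEF2 consensus match from 40 to 31 bases before the start.

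Mef2a: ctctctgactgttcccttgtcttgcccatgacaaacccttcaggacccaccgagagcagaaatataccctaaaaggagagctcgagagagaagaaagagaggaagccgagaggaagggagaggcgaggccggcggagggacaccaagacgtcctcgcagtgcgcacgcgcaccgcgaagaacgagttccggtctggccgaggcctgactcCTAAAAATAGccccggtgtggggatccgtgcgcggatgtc

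The Mef2d sequence is chr2:175904082-175904331 on the plus strand, with neither set of letters in the window.

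Mef2d: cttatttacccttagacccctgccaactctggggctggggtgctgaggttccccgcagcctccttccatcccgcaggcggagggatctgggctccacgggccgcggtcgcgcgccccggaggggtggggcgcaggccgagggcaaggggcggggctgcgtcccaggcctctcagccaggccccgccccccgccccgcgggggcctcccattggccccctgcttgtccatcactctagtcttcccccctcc

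The Rcan1 sequence is chr11:45118237-45118486 on the minus strand, with GGAAA from 225 to 221 bases and, as TTTCC, from 195 to 191 bases before the start.

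Rcan1: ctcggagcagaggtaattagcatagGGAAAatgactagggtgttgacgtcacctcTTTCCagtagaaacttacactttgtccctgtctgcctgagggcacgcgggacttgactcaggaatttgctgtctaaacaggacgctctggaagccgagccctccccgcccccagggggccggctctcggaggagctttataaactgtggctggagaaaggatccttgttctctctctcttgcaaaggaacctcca

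A MEF2 consensus match stood in 2.96% of 33469 windows of this length before rat genes, and GGAAA on either strand in 56.9%. Ppp3cb held 1 GGAAA, and Ppp3ca and Nfatc2 held neither. The GC content was 73.2% for Mef2d, 59.6% for Mef2a and 54% for Rcan1, beside a median of 51.2% over all windows. These matches describe the letters of 1 annotated start per gene and were not tested for binding.

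The level of each gene is given in FPKM, fragments scaled to transcript length and library depth, which the authors made from reads counted per gene and which allow levels of different genes to be set side by side. The reads recovered from these values summed to between 14121713 and 16871371 per library. Comparisons between groups were made with limma on log2(FPKM + 0.5), with p values adjusted over all 13910 tested genes. A gene was called when its adjusted p was under 0.05 and its fold change over 1.3. All log2 differences below are on that scale, which understates differences of low genes such as Nfatc2. In bulk tissue, fewer cells of a type and less RNA per cell cannot be told apart.

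The libraries differed in markers of other cells. The 9 markers of ventricular cardiomyocytes were present in every library, with summed FPKM of 26236 to 28064 in sham LV, 27105 to 29878 in VO LV, 22871 to 26731 in sham RV and 18742 to 27168 in VO RV. The sum hid opposite shifts of single markers. Ryr2, Myh6 and Myh7 separated the sham groups, with the LV at the low end (Ryr2 21.2 to 24.0 against 34.6 to 55.8 FPKM). Tnni3, Tnnt2 and Myl3 separated them the other way (Tnni3 3384 to 3740 against 2177 to 2581 FPKM). Actc1, Myl2 and Pln overlapped. From sham LV to VO LV, Ryr2, Myh6, Myh7 and Actc1 rose and Tnni3 and Tnnt2 fell, without overlap. Myh7 is also among the targets described below. The 4 markers of atrial cardiomyocytes (Sln, Myl7, Myl4 and Bmp10) summed to 1522 FPKM in VO RV replicate 2 and 440 FPKM in sham RV replicate 1, against 148 to 306 FPKM in the other 10 libraries. Myl4 made up most of the sum in those 10, at 126 to 265 FPKM, and its 191 FPKM in sham RV 1 lay within that range. The contrast was widest in Sln, at 388 FPKM in VO RV 2 and 97.7 FPKM in sham RV 1, against at most 0.678 FPKM in the other 10. In the same order Bmp10 was at 72.4 and 12.6 FPKM, against at most 0.152, and Myl7 at 463 and 138 FPKM, against 21.4 to 75.5. Summed markers of red blood cells were 9620 to 13178 FPKM in sham LV, 6460 to 9881 in VO LV, 4897 to 8161 in sham RV and 4776 to 10757 in VO RV, and those of endothelial cells were 371 to 398, 309 to 345, 278 to 299 and 271 to 339 FPKM in the same order of groups. Those of fibroblasts were 2594 to 2789, 2063 to 2543, 2770 to 3640 and 2534 to 4936 FPKM, with the highest value in VO RV replicate 2. Macrophage markers summed to 38.7 to 42.5, 34.8 to 37.0, 31.4 to 37.9 and 38.0 to 61.1 FPKM, without overlap in any of the 4 pairs of groups compared. The RV groups were barely apart, with 37.995 FPKM in VO RV 1 against 37.885 FPKM in sham RV 3. Between the sham groups Cd163 was lower in sham LV without overlap, and the other macrophage markers overlapped. Between VO RV and sham RV, Cd68 and C1qb were higher without overlap and the others overlapped. Lymphocyte markers summed to 10.4 to 11.5, 8.42 to 9.89, 8.02 to 10.6 and 7.90 to 12.3 FPKM, and markers of mural cells to 418 to 517, 396 to 477, 354 to 383 and 346 to 480 FPKM, with the mural sum in sham LV above that in sham RV without overlap. Of the single mural markers only Pdgfrb separated the sham groups (33.3 to 40.0 against 25.8 to 31.2 FPKM), and Acta2, Myh11, Rgs5 and Cspg4 overlapped. Mitochondrial genes took 14.4% to 26.2%, 17.4% to 20.5%, 17.3% to 21.6% and 15.95% to 23.8% of the reads, lowest in sham LV replicate 2. None of these markers found in the table was at 0 in all libraries. Transcripts of 5 Y-linked genes summed to 56.1 to 64.9 FPKM in sham LV 1 and 2, sham RV 1 and 2 and VO RV 3, and to at most 0.373 FPKM in the other 7 libraries, among them all of VO LV. These transcripts were thus not balanced over the groups. The part of these differences in the results below was not tested beyond the values given beside them.

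Rcan1 was the most abundant of the 9 genes, with a mean of 115 FPKM over the 12 libraries, and 598 genes of the table had a higher mean. Mef2a (35.5 FPKM) and Mef2d (30.5 FPKM) came next. Ppp3cb, the beta catalytic subunit, averaged 25.9 FPKM and Ppp3ca, the alpha catalytic subunit, 16.2 FPKM. Mef2c, the MEF2 factor needed early in heart formation, averaged 14.4 FPKM. The NFAT genes were the lowest, with 7.14 FPKM for Nfatc3, 2.76 FPKM for Nfatc4 and 1.96 FPKM for Nfatc2. Nfatc2 rested on 68 to 152 reads per library and Nfatc4 on 195 to 409, while Rcan1 rested on 2264 to 5300. The genes also differed in how far they varied, from a highest library 1.301 times the lowest for Mef2c to 2.65 times for Mef2a, with Rcan1 at 2.22 and Mef2d at 2.15 times.

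**Figure D1:**
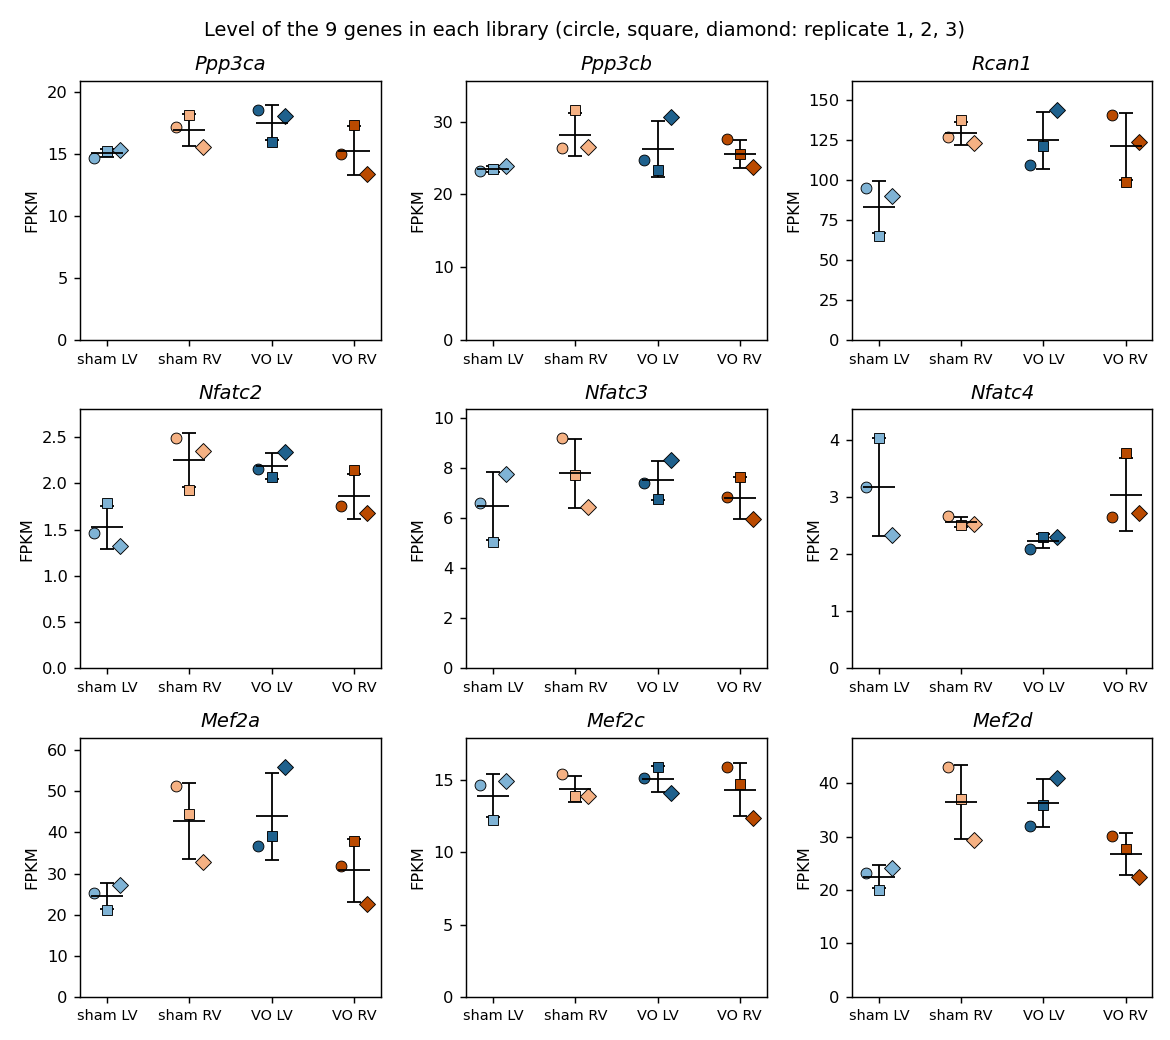
Level of each of the 9 genes in every library, in FPKM on linear axes that start at 0, with 1 panel per gene and 1 column per group. Points are the 3 libraries of a group, and the line and bars are their mean ± SD. Mef2a and Mef2d are lowest in sham LV and high in sham RV and VO LV, while the Mef2c points lie between 12.2 and 15.9 FPKM in all groups.

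Mef2a showed the widest range. Mef2a (ENSRNOG00000047756) is listed on chromosome 1 from 128209971 to 128341263 on the minus strand in the deposited table, whose genome build is not given in the sources used here. Its levels were 25.1, 21.1 and 27.3 FPKM in sham LV and 51.2, 44.4 and 32.7 FPKM in sham RV. They were 36.6, 39.2 and 56.0 FPKM in VO LV and 31.8, 37.8 and 22.6 FPKM in VO RV. All sham LV libraries lay below all sham RV and all VO LV libraries, while VO RV overlapped with both sham RV and VO LV. The group means were 24.5 ± 3.12 in sham LV, 30.7 ± 7.63 in VO RV, 42.8 ± 9.35 in sham RV and 43.9 ± 10.5 FPKM in VO LV (SD, n = 3), and in this order each neighbouring pair overlapped.

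Mef2d, a close relative of Mef2a (ENSRNOG00000031778, listed on chromosome 2 from 187512164 to 187538026, plus strand), followed nearly the same order. Its levels were 23.2, 20.1 and 24.2 FPKM in sham LV, 32.0, 35.9 and 41.0 in VO LV, 43.1, 37.0 and 29.4 in sham RV and 30.1, 27.7 and 22.5 in VO RV. The sham LV libraries lay below those of sham RV and VO LV, VO LV lay above VO RV, and the 2 RV groups overlapped. Over the 12 libraries the log2 levels of Mef2a and Mef2d had a Pearson r of 0.966, the highest of the 36 pairs among the 9 genes. The 12 points share the group structure, the depth and any difference in tissue makeup of the libraries, so this r is a description only.

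Rcan1 (ENSRNOG00000001979, chromosome 11 from 32539683 to 32550539, minus strand) was at 95.4, 64.8 and 89.8 FPKM in sham LV. It was at 109, 121 and 144 FPKM in VO LV, 127, 137 and 124 FPKM in sham RV, and 141, 98.8 and 124 FPKM in VO RV. Sham LV was thus below each of the other groups, whose means were 125 ± 17.7, 129 ± 7.27 and 121 ± 21.0 FPKM (SD, n = 3) and whose ranges overlapped one another. The r of Rcan1 with Mef2d was 0.744.

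Mef2c (ENSRNOG00000033134, chromosome 2 from 11658568 to 11822787, plus strand) did not follow its relatives. It was at 14.6, 12.2 and 14.9 FPKM in sham LV, 15.2, 15.9 and 14.1 in VO LV, 15.4, 13.9 and 13.9 in sham RV and 15.9, 14.8 and 12.4 in VO RV. Every pair of groups overlapped. Its r was 0.508 with Mef2a and 0.546 with Mef2d.

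The calcineurin genes varied little. Ppp3ca (ENSRNOG00000009882, chromosome 2) was at 14.7, 15.2 and 15.3 FPKM in sham LV, 18.6, 15.96 and 18.1 in VO LV, 17.2, 18.1 and 15.6 in sham RV and 15.0, 17.4 and 13.4 in VO RV. Ppp3cb (ENSRNOG00000054782, chromosome 15) was at 23.2, 23.5 and 23.9 FPKM in sham LV, 24.8, 23.3 and 30.6 in VO LV, 26.4, 31.6 and 26.6 in sham RV and 27.6, 25.6 and 23.7 in VO RV. Sham LV lay below sham RV for both genes and below VO LV for Ppp3ca only. The r between the 2 subunits was 0.593, and that of Ppp3ca with Mef2a 0.810.

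Among the NFAT factors, which carry calcineurin signals into the nucleus, Nfatc2 (ENSRNOG00000012175, chromosome 3) was at 1.46, 1.78 and 1.33 FPKM in sham LV, 2.16, 2.07 and 2.34 in VO LV, 2.49, 1.92 and 2.35 in sham RV and 1.76, 2.14 and 1.68 in VO RV. Nfatc3 (ENSRNOG00000054264, chromosome 19) was at 6.61, 5.05 and 7.74 FPKM in sham LV, 7.40, 6.77 and 8.33 in VO LV, 9.18, 7.71 and 6.44 in sham RV and 6.82, 7.63 and 5.94 in VO RV. Nfatc2 in sham LV lay below VO LV and sham RV without overlap, while the Nfatc3 groups overlapped. Nfatc4 (ENSRNOG00000020482, chromosome 15) ran the other way, with 3.18, 4.03 and 2.33 FPKM in sham LV, 2.09, 2.29 and 2.30 in VO LV, 2.67, 2.51 and 2.53 in sham RV and 2.65, 3.78 and 2.72 in VO RV. VO LV was its lowest group, below each of the others without overlap. The log2 levels of Nfatc4 had a negative r with those of all 8 other genes, from -0.17 with Nfatc2 to -0.65 with Rcan1.

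**Figure D2:**
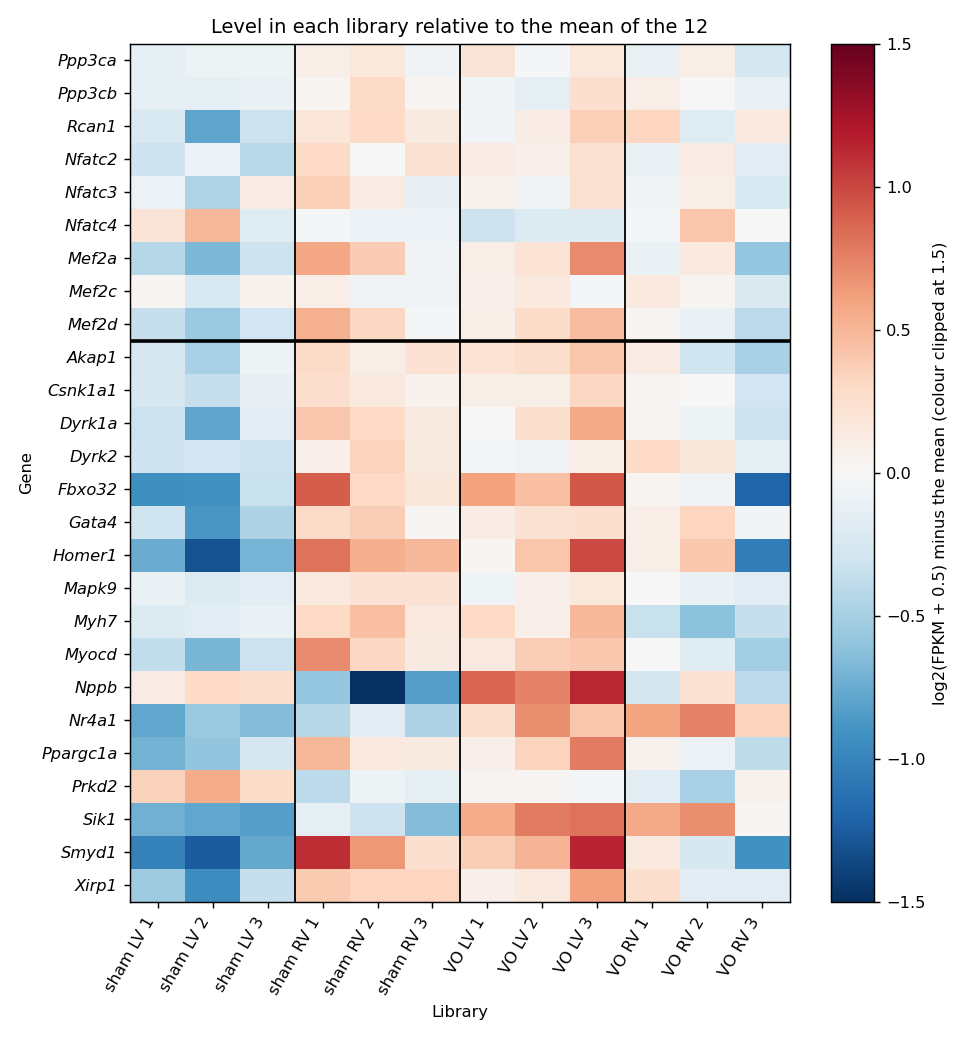
Level of each gene in each of the 12 libraries as log2(FPKM + 0.5) of the deposited values, with the mean of the gene over the 12 libraries subtracted, as a colour scale in log2 units. The upper block holds the 9 genes, the lower block the called genes of the pathway lists, and columns are the libraries by group. Mef2a, Mef2d and Rcan1 are below their means in the 3 sham LV libraries.

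The first comparison asked how the normal LV and RV differed at P7. Mef2d differed between sham LV and sham RV by a log2 value of -0.67, lower in the LV (SE 0.15, limma adjusted p = 0.0418), a called difference. It was the only 1 of the 9 genes called, beside 3.86% of all tested genes called in this comparison and 2.35% called lower in the LV, and 5 of the 9 had an unadjusted p under 0.05, beside 25.7% of all. Mef2a stood at -0.77 (SE 0.22, limma adjusted p = 0.0681) and Rcan1 at -0.65 (SE 0.17, limma adjusted p = 0.0508), both short of the threshold. Nfatc2 stood at -0.44 (95% interval -0.77 to -0.12), Ppp3cb at -0.25 (-0.50 to -0.01), Ppp3ca at -0.16 (-0.39 to 0.07) and Nfatc3 at -0.26 (-0.62 to 0.11). Mef2c, at -0.05, had an interval from -0.30 to 0.20, and Nfatc4 was the 1 gene with a positive value, 0.24 (-0.15 to 0.62). The median over the 9 genes was -0.26, beside 0.01 over all tested genes. For 6 of the 9 genes all sham LV libraries lay below all sham RV libraries, where 32.2% of all tested genes did not overlap in either direction and 16.6% were lower without overlap.

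The call of Mef2d between the sham groups depended on single libraries. It was lost without any 1 of sham LV 1, sham LV 2, sham LV 3, sham RV 1, sham RV 2, VO LV 1 or VO LV 2, with limma adjusted p from 0.0511 to 0.154, and the log2 difference stayed between -0.82 and -0.55. Rcan1 was called without VO RV 1 (limma adjusted p = 0.0498) or VO RV 2 (0.0376), and Mef2a without VO RV 3 (0.0427). The call was also lost without a filter on low values, over 21603 genes (limma adjusted p = 0.0745), and in a fit of the 6 sham libraries alone (0.0623). Without both RV libraries rich in atrial markers, Mef2d stood at -0.55 (limma adjusted p = 0.144). With the Y-linked level as a covariate it stood at -0.67 (limma adjusted p = 0.0499). With the atrial level as a covariate the call of Mef2d was lost, at -0.63 (limma adjusted p = 0.0576), and Rcan1 was called, at -0.71 (0.0467). The share of all tested genes called also depended on single libraries, and the 537 genes called became 0 without sham RV 1, 1 without sham LV 2, 3 without sham LV 1, 4 without sham RV 2, 5 without VO LV 2, 173 without VO LV 1, 185 without sham RV 3 and 870 without VO RV 3.

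The second comparison was of VO with sham in the LV. None of the 9 genes was called by limma, beside 0.0935% of all tested genes, while 5 of the 9 had an unadjusted p under 0.05, beside 23.4% of all tested genes. Mef2a was at 0.81 (95% interval 0.33 to 1.297, limma adjusted p = 0.0793), Mef2d at 0.68 (0.34 to 1.02, limma adjusted p = 0.0582) and Rcan1 at 0.59 (0.23 to 0.96, limma adjusted p = 0.0822). On the reads recovered from the FPKM, voom with limma called 1 of the 9, Mef2d (0.69, adjusted p = 0.0402), and 341 of the 13910 tested genes. Nfatc2 was at 0.42 (0.09 to 0.74), Ppp3ca at 0.21 (-0.02 to 0.44), Nfatc3 at 0.22 (-0.15 to 0.58), Ppp3cb at 0.15 (-0.10 to 0.39) and Mef2c at 0.11 (-0.13 to 0.36). Nfatc4 was at -0.40 (-0.79 to -0.02), the 1 negative value. Without overlap, 5 genes were higher and 1 lower in VO LV, beside 16.7% and 15.7% of all tested genes (32.4% in either direction), and the median over the 9 genes was 0.22, beside -0.02 over all. This comparison uses the same sham LV libraries as the one between the sham groups, so a low sham LV level enters both. Without VO RV 3, which adds to the estimate of the spread only, Mef2a (limma adjusted p = 0.0472) and Mef2d (0.0353) were called. With the atrial level as a covariate Mef2d was called, at 0.67 (limma adjusted p = 0.0479), with 324 of all tested genes. With the Y-linked level as a covariate Mef2d was at 0.67, Mef2a at 0.75 and Rcan1 at 0.59 (limma adjusted p = 0.267, 0.319 and 0.310). Limma then called 0 of the 13910 tested genes, with 1775 at an unadjusted p under 0.05, against 3258 without the covariate. The Y-linked transcripts were present in 2 of 3 sham LV and in 0 of 3 VO LV libraries. Over all tested genes the 13 called became 554 without VO RV 3, 307 without sham LV 3, 174 without VO RV 1, 5 without sham RV 1, 4 without sham RV 2, 2 without sham RV 3, and 0 without sham LV 1, sham LV 2 or any VO LV library.

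In the RV none of the 9 genes was called between VO and sham by limma, and neither was any of the 13910 tested genes (0%). Of the 9, 1 had an unadjusted p under 0.05, beside 8.4% of all tested genes, and voom called 0. That gene was Mef2d, at -0.43 (95% interval -0.77 to -0.09, limma adjusted p = 0.549). The 8.4%, 1168 genes, moved with single libraries, from 641 genes without VO RV 3 to 1735 without VO RV 1. Mef2a was at -0.47 (-0.96 to 0.01), Rcan1 at -0.11 (-0.47 to 0.26) and Mef2c at -0.01 (-0.26 to 0.24). Ppp3cb was at -0.13, Ppp3ca at -0.15, Nfatc3 at -0.17, Nfatc2 at -0.22 and Nfatc4 at 0.20, and the groups overlapped for all 9 genes, where 12.5% of all tested genes did not overlap. The median over the 9 was -0.15, beside 0.00 over all tested genes.

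Between the ventricles of VO rats none of the 9 genes was called by limma, beside 0.00719% of all tested genes, and voom called 0. Over all tested genes the 1 called became 48 without VO RV 1, with none of the 9 among them. It was 1 or 2 without any other single library. Of the 9, 2 had an unadjusted p under 0.05, beside 11.4% of all. Mef2d was at 0.43 (95% interval 0.10 to 0.77) and Mef2a at 0.51 (0.03 to 1.00), positive where the sham comparison was negative. Mef2d was higher in VO LV without overlap and Nfatc4 lower, at -0.37 (-0.75 to 0.02), where 16.1% of all tested genes did not overlap. Rcan1 was at 0.05 (-0.31 to 0.41) and Mef2c at 0.07 (-0.17 to 0.32).

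The last comparison asked whether the LV and the RV responded differently to VO, as the LV response minus the RV response. Mef2a differed by 1.29 (SE 0.31, 95% interval 0.60 to 1.97, limma adjusted p = 0.0463) and Mef2d by 1.11 (SE 0.22, 0.63 to 1.59, limma adjusted p = 0.0312). These 2 of the 9 genes were called, beside 4.19% of all tested genes and 3.46% with a higher LV response, and 6 of the 9 had an unadjusted p under 0.05, beside 25.5% of all. In both genes VO LV lay above sham LV and the mean of VO RV lay below that of sham RV. Nfatc2 was at 0.64 (0.18 to 1.09, limma adjusted p = 0.0948), Rcan1 at 0.70 (0.19 to 1.21, limma adjusted p = 0.101) and Ppp3ca at 0.36 (0.03 to 0.69). Nfatc3 was at 0.39 (-0.13 to 0.90), Ppp3cb at 0.28 (-0.07 to 0.63) and Mef2c at 0.12 (-0.22 to 0.47), and Nfatc4 at -0.60 (-1.15 to -0.06, limma adjusted p = 0.162). The median over the 9 genes was 0.39, beside -0.04 over all tested genes.

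**Figure D3:**
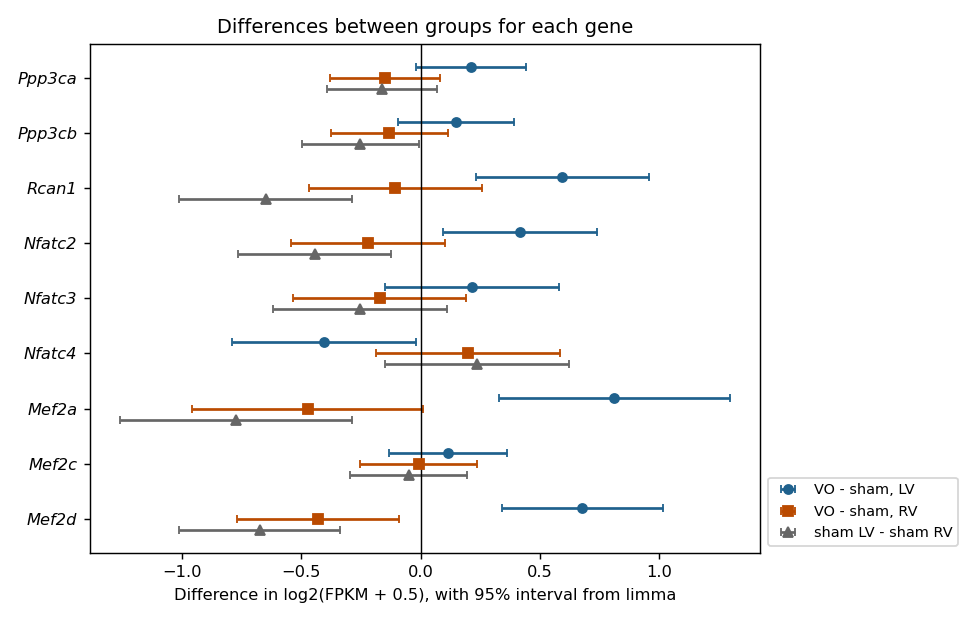
Difference between groups for each of the 9 genes on the log2(FPKM + 0.5) scale, with points for the limma estimate, bars for its 95% interval and a line at 0. Marker shapes and colours stand for VO minus sham in the LV, VO minus sham in the RV, and sham LV minus sham RV. Mef2a and Mef2d lie at 0.81 and 0.68 in the LV, -0.47 and -0.43 in the RV and -0.77 and -0.67 between the sham groups, while all intervals of Mef2c cross 0.

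Both calls depended on single libraries and on the processing. The call of Mef2a was lost without any 1 of sham LV 1, sham LV 2, sham RV 1, sham RV 2, VO LV 1, VO LV 2, VO LV 3 or VO RV 3 (limma adjusted p up to 0.120), with the difference between 1.08 and 1.46. That of Mef2d was lost without any 1 of sham LV 1, sham LV 2, sham RV 1, sham RV 2, VO LV 2, VO LV 3 or VO RV 3 (limma adjusted p up to 0.0898), with the difference between 0.98 and 1.25. Without a filter on low values both calls were lost, at a limma adjusted p of 0.0849 for Mef2a and 0.0599 for Mef2d. The call of Mef2a was also lost with quantile normalization (1.24, limma adjusted p = 0.0506) and with the trend over gene length removed (1.22, limma adjusted p = 0.0518), where Mef2d was called. Without both RV libraries rich in atrial markers the values were 1.31 for Mef2a (limma adjusted p = 0.0816) and 1.01 for Mef2d (0.0771). With the Y-linked level as a covariate they were 1.26 for Mef2a (limma adjusted p = 0.0739) and 1.10 for Mef2d (0.0494). With the atrial level as a covariate both were called, at 1.33 for Mef2a (limma adjusted p = 0.0241) and 1.13 for Mef2d (0.0203). Over all tested genes the 583 called became 0 without sham LV 1, sham LV 2, sham RV 1, VO LV 2 or VO LV 3, 4 without sham RV 2, 111 without VO RV 3, 240 without VO LV 1, 909 without VO RV 2 and 1003 without VO RV 1.

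The RV libraries split by the Y-linked transcripts. Among RV libraries with them, Mef2a was at 51.2 and 44.4 FPKM in sham and 22.6 FPKM in VO, and Mef2d at 43.1 and 37.0 FPKM in sham and 22.5 FPKM in VO. Among RV libraries without them, Mef2a was at 32.7 FPKM in sham and 31.8 and 37.8 FPKM in VO, and Mef2d at 29.4 FPKM in sham and 30.1 and 27.7 FPKM in VO. In LV libraries without these transcripts Mef2a was at 27.3 FPKM in sham and 36.6 to 56.0 FPKM in VO, and Mef2d at 24.2 FPKM in sham and 32.0 to 41.0 FPKM in VO. Each of these subsets held 1 library of one group, too few for a comparison within it, and the LV had no VO library with the transcripts.

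Mef2c kept to a narrow range while Mef2a and Mef2d did not, so the makeup of the MEF2 transcripts varied between libraries. The 3 genes summed to 63.0, 53.5 and 66.4 FPKM in sham LV, 83.7, 91.1 and 111 in VO LV, 110, 95.3 and 76.0 in sham RV and 77.8, 80.3 and 57.5 in VO RV. Mef2c made up 23.2%, 22.9% and 22.5% of the sum in sham LV, 18.1%, 17.5% and 12.7% in VO LV, 14.1%, 14.6% and 18.3% in sham RV and 20.5%, 18.4% and 21.5% in VO RV. The group means were 22.9 ± 0.391%, 16.1 ± 2.96%, 15.6 ± 2.29% and 20.1 ± 1.57% in the same order of groups (SD, n = 3). All 4 pairs of groups compared were without overlap, with a difference of 7.23 percentage points between sham LV and sham RV, -6.77 between VO LV and sham LV, 4.47 between VO RV and sham RV and -4.01 between VO LV and VO RV. Each had an exact two-sided permutation p of 0.10, the smallest that 3 libraries against 3 allow. Over the 44 such tests made on sums and shares the lowest Benjamini-Hochberg adjusted p was 0.259, and over the 36 exact permutation tests of the single genes it was 0.257.

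**Figure D4:**
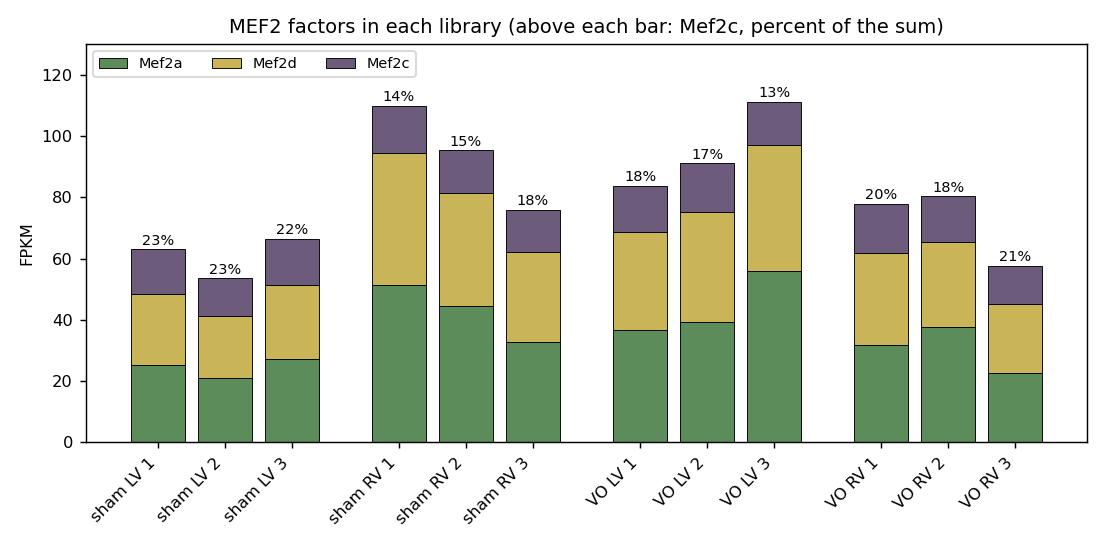
Level of Mef2a, Mef2d and Mef2c as stacked bars in FPKM from 0, for each of the 12 libraries by group, with the rounded Mef2c share of the sum in percent above each bar. The Mef2c share is 22.5% to 23.2% in sham LV, 12.7% to 18.1% in VO LV, 14.1% to 18.3% in sham RV and 18.4% to 21.5% in VO RV.

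Sums over the calcineurin and NFAT genes spread over a narrower range. Ppp3ca and Ppp3cb together were at 38.6 ± 0.696 FPKM in sham LV, 43.8 ± 4.73 in VO LV, 45.2 ± 4.05 in sham RV and 40.9 ± 3.26 in VO RV (SD, n = 3), and sham LV lay below sham RV and VO LV without overlap. Ppp3ca made up 37.3% to 40.2% of this sum as group means, and the groups overlapped. The 3 NFAT genes together were at 11.2 ± 0.273, 11.9 ± 0.949, 12.6 ± 1.56 and 11.7 ± 1.66 FPKM in the same order of groups, with overlap throughout. Within this sum Nfatc4 made up 20.5 ± 1.87% in sham RV and 25.9 ± 2.18% in VO RV, without overlap, and 18.8 ± 1.60% in VO LV, while its share in sham LV spread from 20.5% to 37.1%.

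Marker levels of other cells moved with some of these genes over the 12 libraries. The log2 level of the summed red blood cell markers had an r of -0.71 with Mef2a, -0.71 with Ppp3ca, -0.67 with Ppp3cb, -0.64 with Nfatc3 and -0.58 with Mef2d. That of the endothelial markers had an r of -0.72 with Rcan1, -0.69 with Nfatc2, -0.66 with Ppp3cb, -0.61 with Mef2d and -0.58 with Mef2a. Sham LV had the lowest Mef2a, Mef2d and Rcan1 and, as given above, the highest endothelial sums. For Nfatc4 the r was 0.57 with the fibroblast markers and -0.60 with those of ventricular cardiomyocytes. Ppp3cb had an r of -0.66 with the mural markers, and Nfatc2 one of -0.60 with the log2 share of mitochondrial reads. These are descriptions over 12 points that share the group structure, and the part of these cells in the differences was not tested.

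Across 12658 other genes with a mean of at least 1 FPKM, the closest pattern to Mef2a over the 12 libraries was that of Nek9, a kinase of the NIMA family (r = 0.990 on log2 levels), and the closest to Mef2d was Gpam, a mitochondrial enzyme of glycerolipid synthesis (0.989). Ppp3cb was closest to Ywhae (0.966), Nfatc3 to Arhgap5 (0.954), Rcan1 to Palldl1 (0.950), Nfatc4 to Kazald1 (0.949), Nfatc2 to E2f3 (0.931), Mef2c to Hbp1 (0.925) and Ppp3ca to Rb1cc1 (0.913). These are the highest of many correlations and describe likeness of pattern only.

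Other genes of the pathway were read from lists of 81 genes, of which 74 were tested. Between the sham groups 9 of the 74 were called, 2 higher and 7 lower in sham LV, beside 3.86% of all tested genes, and the median log2 difference was -0.17, beside 0.01 over all. In VO LV against sham LV 2 were called, both higher, beside 0.0935% of all tested genes, and 58 of 74 had a positive value (median 0.16), beside 6565 of 13910 (median -0.02). In VO RV against sham RV limma and voom called 0, and 13 had an unadjusted p under 0.05, beside 8.4% of all tested genes. A positive value was found in 23 of 74 (median -0.07), beside 7035 of 13910 (median 0.00). Between VO LV and VO RV limma and voom also called 0, with 13 at an unadjusted p under 0.05, beside 11.4% of all tested genes, and a median of 0.12, beside 0.01. In the difference of the responses 11 were called, all with the higher value in the LV, beside 4.19% of all tested genes (median 0.21, beside -0.04). These counts moved with single libraries. The count between the sham groups was 0 without sham LV 1, sham LV 2, sham RV 1, sham RV 2 or VO LV 2, and 4 without sham RV 3 or VO LV 1. The count in the LV response was 0 without sham LV 1, sham LV 2 or any VO LV library, 1 without sham RV 3, and 6, 7 and 13 without VO RV 1, sham LV 3 and VO RV 3, and it was 0 with the Y-linked covariate. The count in the difference was 0 without sham LV 1, sham LV 2, sham RV 1, sham RV 2, VO LV 2 or VO LV 3, and 4, 7 and 17 without VO RV 3, VO LV 1 and VO RV 1.

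Among the calcineurin subunits, Ppp3r1, the calcium-binding regulatory subunit, was at 28.4 ± 1.35 FPKM in sham LV, 30.7 ± 2.49 in VO LV, 31.8 ± 2.03 in sham RV and 31.1 ± 2.76 in VO RV. The gamma catalytic subunit Ppp3cc was at 12.6 ± 1.90, 14.1 ± 0.348, 13.8 ± 1.76 and 12.03 ± 0.603 FPKM in the same order of groups (SD, n = 3). Neither was called in any comparison. Of 15 tested modulators and anchors, 1 was called between the sham groups and 3 in the difference of the responses, beside 3.86% and 4.19% of all tested genes. Ppia, which encodes cyclophilin A, the partner of cyclosporin, was not called, with group means from 658 to 754 FPKM, and neither was Fhl2, a LIM protein of the sarcomere, with 584 to 667 FPKM. Fbxo32, the ubiquitin ligase atrogin-1, which marks calcineurin for degradation, was at 5.07 ± 1.35 FPKM in sham LV, 13.9 ± 2.46 in VO LV, 12.2 ± 3.65 in sham RV and 6.79 ± 2.94 in VO RV, and its responses differed by 2.25 (SE 0.45, limma adjusted p = 0.0312).

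Of 11 calmodulin and calcium channel genes upstream of calcineurin, none was called by limma or voom in any comparison, and 0 or 1 per comparison had an unadjusted p under 0.05. Of all tested genes 0% to 4.19% were called and 8.4% to 25.7% had such a p over the same comparisons. Calm3, a calmodulin gene, had group means from 149 to 167 FPKM.

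The list of kinases that phosphorylate NFAT, which also holds Nfat5, had 10 tested genes, and all 10 had a negative value between the sham groups, with a median of -0.37 and 1 call, beside 6729 of 13910 negative and 3.86% called over all tested genes. In VO LV against sham LV 9 of the 10 were positive (median 0.34, none called by limma or voom, 7 with an unadjusted p under 0.05), beside 6565 of 13910 positive and 23.4% with such a p over all tested genes. In the difference of the responses 3 of the 10 were called, beside 4.19% of all tested genes, with a median of 0.53. Csnk1a1, casein kinase 1 alpha, was at 98.7 ± 7.38 FPKM in sham LV, 130 ± 11.8 in VO LV, 129 ± 8.71 in sham RV and 111 ± 13.2 in VO RV, and its responses differed by 0.63 (SE 0.15, limma adjusted p = 0.0478). Mapk14, the kinase p38 alpha, had group means from 28.1 to 29.3 FPKM and was not called.

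Of 10 tested partners of MEF2 (repressors, coactivators and fellow factors), 2 were called between the sham groups and 1 in the difference of the responses, beside 3.86% and 4.19% of all tested genes. Gata4, a zinc finger factor that binds with both NFAT and MEF2, was at 43.9 ± 8.74 FPKM in sham LV and 74.5 ± 9.39 in sham RV (log2 difference -0.77, limma adjusted p = 0.0343). It was at 72.8 ± 3.99 FPKM in VO LV and 69.6 ± 8.99 in VO RV. Myocd, which encodes the coactivator myocardin, was at 5.32 ± 0.773 FPKM in sham LV, 9.38 ± 0.942 in VO LV, 10.1 ± 2.20 in sham RV and 6.37 ± 1.19 in VO RV, called between the sham groups (-0.85, limma adjusted p = 0.0361) and in the difference of the responses (1.38, 0.0249). Hdac5, a class IIa deacetylase that represses MEF2, was at 39.8 ± 2.58 FPKM in sham LV and 34.9 to 35.2 FPKM as means of the other groups, and was not called.

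Of 11 tested kinases of MEF2 and the class IIa deacetylases, 1 was called between the sham groups and 1 in the LV response, beside 3.86% and 0.0935% of all tested genes. The gene called in the LV response was Sik1, a salt-inducible kinase that phosphorylates class IIa deacetylases, which rose from 4.86 ± 0.187 FPKM in sham LV to 14.6 ± 1.40 in VO LV (log2 difference 1.49, limma adjusted p = 0.0333). With the Y-linked level as a covariate limma called 0 of the 74 pathway genes in the LV response, Sik1 among them, and 0 of all 13910. In the RV it was at 6.68 ± 1.25 FPKM in sham and 12.1 ± 2.93 in VO, without overlap (0.80, limma adjusted p = 0.482), and the 2 responses differed by 0.69 (limma adjusted p = 0.120), short of the threshold. Camk2d, a calmodulin-dependent kinase of heart muscle, had group means from 43.9 FPKM in sham LV to 52.3 in VO LV and was not called, and neither was Camk1, with 24.1 to 28.4 FPKM.

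Of 15 known targets of NFAT or MEF2 in heart or muscle, 4 were called between the sham groups, 1 in the LV response and 4 in the difference of the responses, beside 3.86%, 0.0935% and 4.19% of all tested genes. Smyd1, a muscle methyltransferase and MEF2 target, was at 21.9 ± 3.69 FPKM in sham LV, 72.9 ± 22.1 in VO LV, 72.5 ± 22.0 in sham RV and 36.5 ± 12.8 in VO RV. It was called between the sham groups (-1.67, limma adjusted p = 0.0319) and in the difference of the responses (2.68, 0.0249). Xirp1, an actin-binding protein and MEF2 target, was at 20.0 ± 4.10, 37.3 ± 7.99, 38.4 ± 1.09 and 30.2 ± 5.32 FPKM in the same order of groups, called in the same 2 comparisons (-0.95 and 1.24, limma adjusted p = 0.0325 and 0.0317).

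Myh7, the slow beta-myosin heavy chain, was at 823 ± 31.1 FPKM in sham LV, 1126 ± 157 in VO LV, 1133 ± 116 in sham RV and 681 ± 71.7 in VO RV, and its responses differed by 1.18 (SE 0.18, limma adjusted p = 0.0249). Each response alone missed the threshold, at 0.45 in the LV and -0.73 in the RV (limma adjusted p = 0.0888 and 0.366), both without overlap. Nr4a1, an orphan nuclear receptor that MEF2 activates, rose in the LV from 6.86 ± 0.571 to 15.6 ± 2.51 FPKM (1.12, limma adjusted p = 0.0333), a call that was likewise lost with the Y-linked covariate. It stood in the RV at 8.69 ± 1.10 in sham and 16.7 ± 2.36 FPKM in VO, without overlap (0.91, limma adjusted p = 0.313).

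Nppb, which encodes the natriuretic peptide BNP, was higher in the LV of sham rats (227 ± 14.5 against 102 ± 31.9 FPKM, 1.20, limma adjusted p = 0.0325). It was at 370 ± 52.2 FPKM in VO LV and 178 ± 42.3 in VO RV, and its responses of 0.70 and 0.83 differed by -0.13 (limma adjusted p = 0.824). In each RV group the highest Nppb value was in the library rich in atrial markers. Sham RV 1 had 130 FPKM, beside 67.1 and 109 FPKM, and VO RV 2 had 226 FPKM, beside 160 and 147 FPKM. The part of atrial tissue in these values was not tested. The targets thus did not share 1 pattern, since Smyd1 and Xirp1 had, as did Mef2a and Mef2d, their lowest mean in sham LV and the next in VO RV, while Myh7 was lowest in VO RV, Nppb in sham RV, and the Nr4a1 means were higher in both VO groups than in both sham groups. Acta1, skeletal alpha-actin, was at 2257 ± 518 FPKM in sham LV, 2964 ± 317 in VO LV, 1913 ± 361 in sham RV and 1835 ± 291 in VO RV, and was not called.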

How the data were processed

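Poly-A RNA of LV and RV free walls was sequenced in 12 libraries. The authors removed low-quality reads, aligned the rest with HISAT2 2.0.5, counted reads per gene with featureCounts 1.5.0-p3 and deposited FPKM for 32545 genes in 1 table. The genome build and strand setting are not given in the sources used here, so reads of a gene overlapping a listed gene on the other strand may be included.

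For each library a median-ratio size factor was divided out, and the pseudocount before the log2 step was 0.5. The filter kept the 13910 genes whose mean over the 12 libraries was 0.5 FPKM or more. A single limma 3.58.1 model (R 4.3.3, eBayes with a trend) held the 4 groups, and Benjamini-Hochberg adjustment ran over all genes kept. No count model was the main test, because the values are FPKM. Values under 200 reads were whole multiples of 1 read within 0.02 in 100% of cases, so the recovered reads were also fitted with voom. For single values, 3 libraries were set against 3 in a two-sided exact permutation of the deposited FPKM. Correlations used Pearson's r on log2 levels in Python 3.11.15 with scipy 1.17.1. The procedure was tested on simulated data.

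The genes and lists were chosen with earlier results of these data known. Beside the 9 genes, the text names the 2 genes of each list with the highest mean FPKM, up to 5 called genes per comparison with the smallest adjusted p, and the gene most alike to each of the 9. A gene that this rule selects is not reported here. Alternatives were other scalings, pseudocounts, filters, covariates, fits, and each library left out. The replicate numbers were not shown to pair the libraries.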

Additional observations from a re-analysis of the deposited data

Results flagged for a closer look

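In these results the response of the LV to VO differed from that of the RV by the limma test of the difference itself, adjusted over all 13910 tested genes. The value given is the LV response minus the RV response on the log2(FPKM + 0.5) scale. It was 1.29 for Mef2a and 1.11 for Mef2d. Among other genes of the pathway it was 2.68 for Smyd1, 2.25 for Fbxo32, 1.38 for Myocd, 1.24 for Xirp1 and 1.18 for Myh7. For each of the 7 genes the mean of VO LV lay above that of sham LV and the mean of VO RV below that of sham RV. Single outlying libraries were not tested for, since each group held 3 libraries. Leaving out 1 library did end these calls. Without any 1 of sham LV 1, sham LV 2, sham RV 1, VO LV 2 or VO LV 3, none of the 7 genes was called. In each of these fits the 583 calls over all tested genes became 0.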

How the results depend on the processing

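Of the 9 genes, 1 was called between the sham groups, 0 in each response, 0 between the VO groups and 2 in the difference of the responses. Between the sham groups the count was 2 with quantile normalization, a mean FPKM of at least 1 or voom, and 3 with array weights (637, 597 of 12667, 683 and 1321 over all tested genes, against 537). The count was 0 without a filter, in a separate fit of the 6 libraries or without both RV libraries rich in atrial markers (8 of 21603, 314 and 7 over all tested genes). With the atrial covariate it stayed 1 (344 over all tested genes), but Rcan1 was called in place of Mef2d. In the LV response it was 1 with array weights, voom or the atrial covariate (704, 341 and 324 over all tested genes, against 13). In the difference it was 1 with quantile normalization, with the gene-length trend removed or with the Y-linked covariate (629, 393 and 203 over all tested genes, against 583). It was 0 without a filter or without both atrial-rich libraries (21 of 21603 and 2 over all tested genes). Leaving out each library in turn gave 0 to 2 calls between the sham groups, in the LV response and in the difference, and 0 to 0 in the RV response and between the VO groups.

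Of the 74 pathway genes, 9 were called between the sham groups, and the count was 0 without a filter, 4 in a separate fit and 0 without both atrial-rich libraries (0 to 13 leaving out each library). In the LV response 2 were called, and the count was 6 at a mean FPKM of at least 1, 4 in a separate fit, 14 with array weights, 9 with voom, 0 with the Y-linked covariate, 8 with the atrial covariate and 1 without both atrial-rich libraries (0 to 13). Between the VO groups the atrial covariate gave 1, with 2 over all tested genes (0 to 0 leaving out each library). The RV response also gave 0 to 0. In the difference 11 were called, and the count was 0 without a filter, 6 with the Y-linked covariate and 0 without both atrial-rich libraries (0 to 17).

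The replicate numbers were not shown to pair the libraries. Correlations of same-numbered deviations were 0.0376 to 0.123 between the sham groups, where 4 of 6 libraries correlated best with their own number, and -0.219 to 0.0536 between the VO groups, where 1 of 6 did. Libraries 1 and 2 held Y-linked transcripts and 3 did not in both sham groups, while among the VO libraries only VO RV 3 held them. With the replicate block, or with a block of number within operation, chosen after seeing the data, 0 of the 9 genes and 0 of the 74 were called between the sham groups and in the difference. Over all tested genes the replicate block called 3 and 1 in these 2 comparisons, and the block within operation 0 and 0, against 537 and 583. With the replicate block the limma adjusted p was 0.0809 for Mef2d between the sham groups, and 0.0904 for Mef2a and 0.0703 for Mef2d in the difference. Leaving out both atrial-rich libraries was also chosen after seeing the data. Over all tested genes, voom called 683, 341, 0, 1 and 802 in the 5 comparisons, against 537, 13, 0, 1 and 583.

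Signs reversed only for uncalled values near 0. Ppp3cb between the VO groups was -0.013 with array weights, and -0.086 to 0.11 leaving out each library (below 0 without VO LV 3 or VO RV 3). Rcan1 in the RV response was 0.018 without both atrial-rich libraries, and -0.22 to 0.031 leaving out each library (above 0 without VO RV 2). Rcan1 between the VO groups was -0.000428 with quantile normalization, -0.059 with array weights, -0.042 with the atrial covariate, -0.088 without both atrial-rich libraries, and -0.088 to 0.16 leaving out each library (below 0 without VO LV 3 or VO RV 2). Mef2c between the sham groups was 0.012 with array weights, 0.059 with the length trend removed, and -0.10 to 0.037 leaving out each library (above 0 without sham LV 2). Mef2c in the RV response was 0.000748 with quantile normalization, 0.000475 with array weights, 0.070 with the length trend removed, 0.013 without both atrial-rich libraries, and -0.085 to 0.092 leaving out each library (above 0 without sham RV 1 or VO RV 3). Mef2c between the VO groups was -0.028 to 0.15 leaving out each library (below 0 without VO RV 3), and in the difference -0.032 with the length trend removed. The cause of these changes was not tested.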
